A study of Mus musculus with 13 samples.

Results

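Integrins are cell surface receptors made of 1 α and 1 β subunit that bind extracellular matrix or other cells and link them to the actin cytoskeleton. Laminins are trimers of 1 α, 1 β and 1 γ chain that form the sheet-like base of basement membranes, where epithelial, muscle, fat and endothelial cells rest. The subunits that a cell makes set the partners it can hold, and in the ovary a basal lamina that holds laminins surrounds each follicle. The genes described here are the integrin and laminin subunits of the mouse. They were chosen by symbol, as Itga or Itgb with a subunit number or letter and Lama, Lamb or Lamc with a chain number. Of the 53465 rows of the deposited table, 38 carried such a symbol and gave 37 genes, of which 26 encode integrin subunits (18 α and 8 β) and 11 encode laminin chains (5 α, 3 β and 3 γ). The extra row was a gene model named Itgam that overlaps the annotated Itgam and was listed at 0 in every library. By the cells that the subunits are best known from, 10 genes were grouped as epithelial, 8 as leukocyte, 2 as platelet, 9 as stromal and 8 as broad, and these groups were drawn from general knowledge.

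The series holds RNA-seq of 10 whole MP EPO-GEMM tumors and of 3 wild-type (WT) ovaries, all from female C57BL/6 mice. An MP tumor is an ovarian tumor that grew after a plasmid mix was injected into the left ovary of a mouse aged 8 to 12 wk and driven into the tissue by electric pulses. The mix carried a MYC transposon with its transposase and a vector with Cas9 and a guide against Trp53, and the labels give the tumors the genotype Myc;p53-/-. The same protocol text stands on the WT ovary labels, which give no treatment of their own for the 3 ovaries, and the animals' age when tissue was taken was not given. Electroporation can reach any cell type around the injection, and whole tumor tissue holds host stroma, vessels and leukocytes beside tumor cells. Library names carry 1 of 3 numbers whose meaning the labels do not give, and libraries that share a number are called a name set here. Name set A holds the 3 WT ovaries and MP tumors 1, 2 and 3, name set B MP tumors 4, 5 and 6 and name set C MP tumors 7 to 10. All WT ovaries stand in name set A, so condition and name set can be told apart only there.

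Values are TPM, a level of transcripts corrected for their length that sums to the same total in each library. Reads worked back from the table numbered 31445004 to 64013840 in WT ovaries and 3892690 to 19906507 in MP tumors, so that a single read over 1 kb amounted to 0.0513 to 0.109 TPM in WT ovaries and 0.114 to 0.790 TPM in MP tumors. RNA of Trp53 was at 80.7 to 85.4 TPM in WT ovaries and 4.300 to 187 TPM (median 13.98) in MP tumors, with MP tumor 10 alone above the WT ovaries, and an edited allele need not lose its RNA. WT ovaries held the markers of their tissue, with summed levels of 3342 to 6258 TPM for 5 granulosa genes and 243 to 360.3 TPM for 5 oocyte genes, against 4.54 to 1507 and 1.43 to 31.6 TPM in MP tumors. In bulk tissue, fewer cells of a type and less RNA per cell cannot be told apart. MP tumors 1, 2 and 3 stood apart from the other libraries in how levels followed transcript length. The correlation across genes of a library's deviation with log2 length was −0.357, −0.415 and −0.354 in these tumors, 0.248 to 0.279 in WT ovaries and −0.134 to 0.239 in MP tumors 4 to 10. MP tumor 2 also stood apart in that its 10 most abundant genes took 55.1% of TPM, against 7.92 to 20.6% in the other libraries, which lowers the TPM of every other gene in it. Subunit genes are long, with a median of 7015 bases against 3516 for all genes tested, so values are also given without MP tumors 1, 2 and 3 and with this length trend removed.

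Promoter sequence was read for a pair of these genes, since the results below turn on one that was low in every tumor, Itga2, and one with the widest range over tumors in log2(TPM + 1), Lama5. RefSeq windows matched 23 of the 37 genes. The 250 bases before the annotated start are shown 5′ to 3′ on the gene's own strand, from mouse build GRCm38.p6, at chr13:114932101-114932350 for Itga2 and chr2:180225860-180226109 for Lama5, both on the minus strand. Capitals mark matches to any of 4 motifs searched on both strands with overlaps allowed, a GC box (GGGCGG), an AP-1 site (TGANTCA), an E-box (CACGTG) and a TATA box (TATAAA).
Itga2: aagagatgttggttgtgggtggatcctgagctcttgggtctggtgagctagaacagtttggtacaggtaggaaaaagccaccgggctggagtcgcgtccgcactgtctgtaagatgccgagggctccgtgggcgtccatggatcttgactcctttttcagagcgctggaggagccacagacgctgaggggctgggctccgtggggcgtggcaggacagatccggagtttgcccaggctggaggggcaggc
Lama5: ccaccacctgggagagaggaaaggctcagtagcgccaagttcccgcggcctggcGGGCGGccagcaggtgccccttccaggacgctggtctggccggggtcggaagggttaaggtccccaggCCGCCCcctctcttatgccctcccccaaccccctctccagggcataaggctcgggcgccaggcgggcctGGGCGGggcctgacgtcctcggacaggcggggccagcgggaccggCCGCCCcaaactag
The Lama5 window held 4 matches to the GC box and none of the other motifs, and the Itga2 window held none of the 4. Over all windows that matched, the GC box was found in 8 of 23 subunit genes (34.8%) and in 32.7% of 32851 mouse promoters, and the AP-1 site in 1 of 23 (4.35%) against 6.75%. The E-box and the TATA box were found in 0 of 23, against 6.02% and 12.4% of all promoters. A match is only a run of letters in this window. The median GC content was 58.4% for the subunit genes and 52.4% for all promoters.

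**Figure D1:**
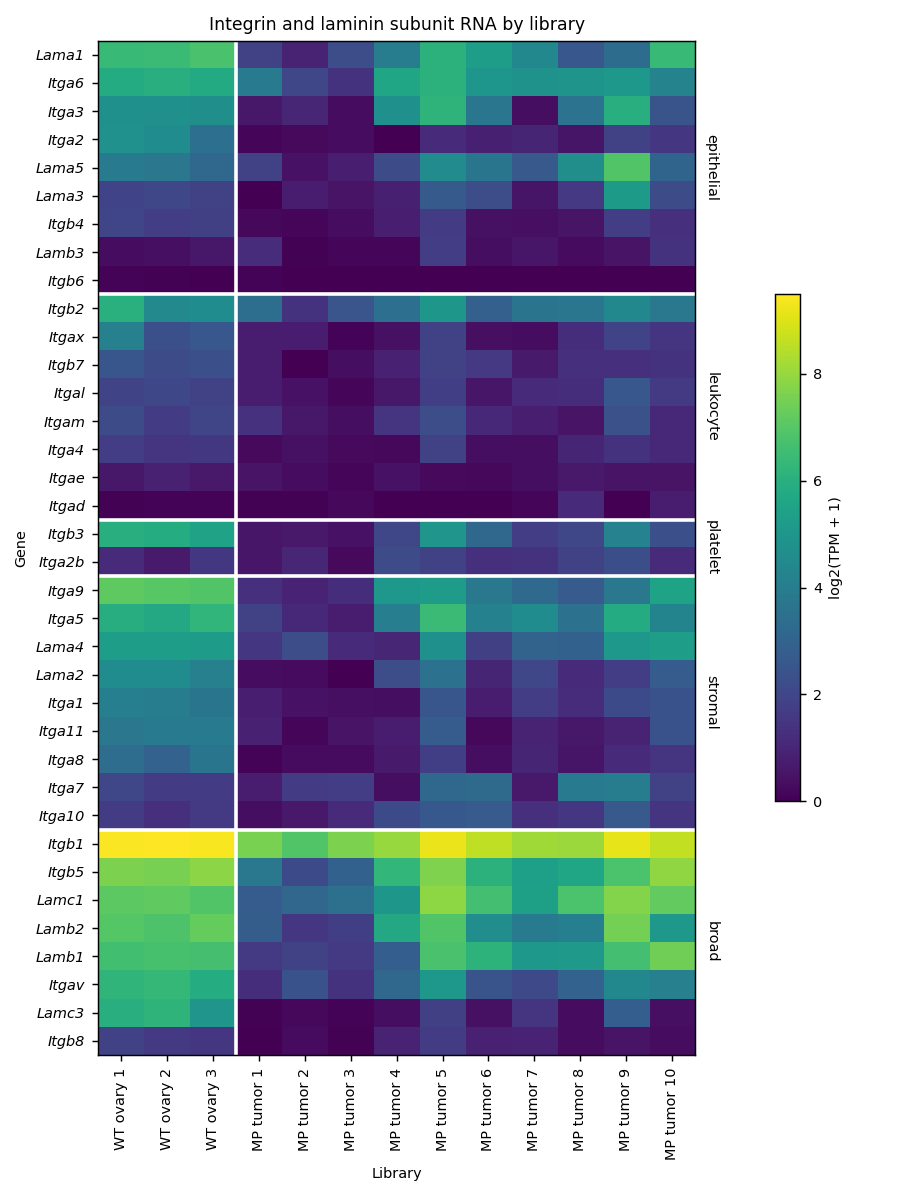
Level of 36 of the subunit genes, as log2(TPM + 1) by color, with 1 column for each of the 3 WT ovaries and 10 MP tumors and rows grouped as epithelial, leukocyte, platelet, stromal and broad. Itgb1 is the brightest row in every library, and the columns of MP tumors 1, 2 and 3 are dark in most rows while those of MP tumors 5 and 9 are closer to the WT ovaries.

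The first comparison asked which subunits differed between MP tumors and WT ovaries. Of 37 genes, 34 reached 1 TPM in at least 3 libraries and were tested, and Itgad, Itgae and Itgb6 did not. With limma on log2(TPM + 1), 14 of the 34 were lower in MP tumors and 0 were higher, or 41.2% lower, where 14.3% of all 17277 genes tested were lower and 2.51% higher. No member was higher at an unadjusted p under 0.05 or by limma-voom on the recovered reads, while 22 were lower at an unadjusted p under 0.05. The median log2 fold change was −1.72 over the 34 genes and −0.58 over all genes. The background moved with the scaling. With median-of-ratios scaling 10 members were lower, where 10.5% of all genes were lower and 7.5% higher (medians −1.13 and 0.012), with quantile normalization 12, where 12.1 and 11% were (medians −1.16 and 0.080), and with limma-voom 18, where 17.6 and 15.8% were (medians −1.72 and −0.035). No member was higher under these 3. In 13 of them all 10 tumors lay below all 3 ovaries (38.2%), which held for 16.4% of all genes tested. The count was 8, 8 or 9 (23.5, 23.5 or 26.5%) without WT ovary 1, 2 or 3, where 6.7, 6.92 or 6.86% of all genes were lower, and 12 to 19 without 1 of the tumors, where 11.9 to 18.9% of all genes were. With a filter of 1 TPM in at least 10 libraries 3 of 18 were lower (16.7%), where 7.53% of all genes were.

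Stromal subunits had 5 of 9 tested genes lower (Itga1, Itga8, Itga9, Itga11 and Lama2), the broad group 4 of 8 (Itgav, Itgb1, Itgb8 and Lamc3), leukocyte subunits 2 of 6 (Itgax and Itgb7), platelet subunits 1 of 2 (Itgb3) and epithelial subunits 2 of 9 (Itga2 among them). Medians of the log2 fold change were −2.61 for stromal, −2.20 for broad, −1.27 for epithelial and −1.09 for leukocyte genes, and no test between these groups was made. By family, 11 of 23 integrin and 3 of 11 laminin genes were lower. Within name set A, 31 of 34 genes were lower in MP tumors 1, 2 and 3 than in the WT ovaries (median −3.24), where 57.3% of all genes were lower (median −1.20). The 3 left over were Lamb3, Itga2b and Itga7, so every other tested gene that did not pass over all tumors was lower within name set A. With name set as a covariate over all libraries 28 were lower, where 49.4% of all genes were. In MP tumors 4 to 10 against the same ovaries 13 were lower (median −1.10), where 13.5% of all genes were (median −0.28).

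With the length trend removed, 10 genes were lower and 2 higher (5.9%), where 9.25% of all genes were lower and 12.4% higher, and the median over all genes moved from −0.58 to 0.11 while that of the subunit genes moved to −0.96. The 10 were Itga1, Itga2, Itga8, Itga9, Itga11, Itgav, Itgax, Itgb3, Lama2 and Lamc3. Against the other tumors, MP tumors 1, 2 and 3 had 16 of 34 subunit genes lower (47.1%) and 0 higher, where 30.1% of all genes were lower. Why these tumors stand apart was not tested.

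**Figure D2:**
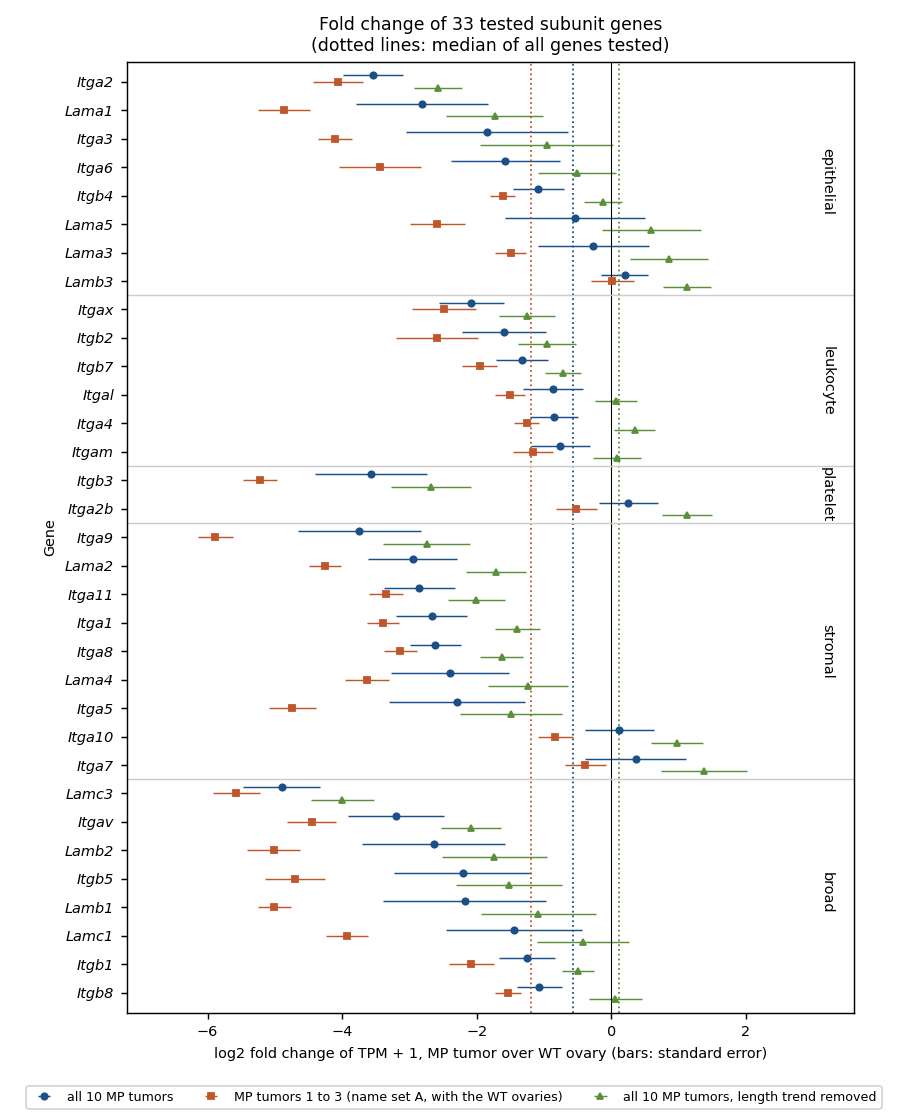
Log2 fold change of TPM + 1 (MP tumor over WT ovary, x axis) for 33 of the tested genes (y axis), with bars for the standard error. Blue is the fit over all 10 tumors, orange the fit within name set A and green the fit with the length trend removed, and dotted lines mark the median of all genes at −0.58, −1.20 and 0.11. Lamc3 lies farthest left in blue and green and Itga9 in orange, and Itga7 and Lamb3 lie right of 0 in blue and green.

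Among the 34 genes, Lamc3 had the largest fold change over all tumors. This gene (ENSMUSG00000026840, chr2:31887291-31946539 of GRCm38, plus strand) encodes the γ3 chain and was at 60.5, 71.7 and 30.1 TPM in the WT ovaries and at 0.0457 to 6.12 (median 0.299) TPM in MP tumors. All 10 tumors lay below the ovaries, and only MP tumors 5, 7 and 9 were above 1 TPM. This was a log2 fold change of −4.90 ± 0.571 (SE, limma adjusted p = 2.38e-05), and it was −5.57 ± 0.348 (SE, limma adjusted p = 2.05e-05) within name set A. Lamc1, the γ1 chain of most laminins, was at 135, 142 and 121 TPM and at 5.74 to 234 (median 70.3) TPM, and MP tumors 5, 9 and 10 lay above the ovaries. Its log2 fold change was −1.45 ± 1.01 (SE, limma adjusted p = 0.3203) over all tumors and −3.93 ± 0.311 (SE, limma adjusted p = 3.91e-05) within name set A.

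Expressed as a share of all γ chain TPM in a library, which a scaling of the whole library does not alter, Lamc1 made up 65.6 to 77.9% in WT ovaries and 82.6 to 99.7% in MP tumors. Lamc3 made up 30.7, 33.1 and 19.5% in the ovaries and at most 4.06% in any tumor. Lamc1 is 8272 and Lamc3 6091 bases long. The summed level of γ chain RNA was 155 to 217 TPM in WT ovaries and 6.94 to 239 TPM (median 71.7) in MP tumors, so the shares of MP tumors 1, 2 and 3 rest on small sums of 6.94 to 10.96 TPM. Shares are given as a description, with no test.

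Among the α chains, which carry the sites that receptors bind, Lama2 was lower. Lama2, the α2 chain of muscle and stromal basement membranes, was at 23.7, 23.2 and 16.6 TPM in WT ovaries and at 0.01396 to 10.7 (median 1.73) TPM in MP tumors. No tumor reached the lowest ovary, and MP tumors 5 and 10 came closest. Lama2 had a log2 fold change of −2.95 ± 0.664 (SE, limma adjusted p = 0.007102), and −1.72 ± 0.446 (SE, limma adjusted p = 0.0139) with the length trend removed, where it is one of the longest subunit transcripts at 16338 bases. Lama1, the α1 chain, was the most abundant α chain in the ovaries at 82.3, 87.5 and 108 TPM, and it was at 0.889 to 82.1 (median 12.2) TPM in the tumors. MP tumor 10, the highest, lay just under the lowest ovary, and the log2 fold change of −2.82 ± 0.9800 (SE, limma adjusted p = 0.0606) did not pass the threshold. Lama4, the α4 chain known from vessel walls and stroma, was at 37.9, 38.8 and 36.2 TPM and at 1.04 to 37.5 (median 5.202) TPM, with MP tumor 10 inside the range of the ovaries (log2 fold change −2.40, SE 0.8798, limma adjusted p = 0.07296).

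Lama5 and Lama3, α chains of epithelial basement membranes, ranged from below to above the ovaries among the tumors. Lama5 (ENSMUSG00000015647, chr2:180176373-180225859, minus strand) was at 14.6, 12.5 and 8.13 TPM in the ovaries and at 0.379 to 119 (median 6.32) TPM in the tumors. The highest value was that of MP tumor 9, MP tumors 8 and 5 followed at 24.7 and 22.9 TPM, and MP tumors 1, 2 and 3 were the 3 lowest at 2.700, 0.379 and 0.731 TPM. The log2 fold change was −0.54 ± 1.04 (SE, limma adjusted p = 0.728), within name set A it was −2.59 ± 0.4105 (SE, limma adjusted p = 0.00104), and in MP tumors 4 to 10 the sign turned to 0.33 ± 0.835 (SE, limma adjusted p = 0.804). Lama3, the α3 chain of laminin-332, was at 2.74, 3.03 and 2.54 TPM and at 0.0259 to 35.2 (median 1.38) TPM, again highest in MP tumor 9 and lowest in MP tumor 1. Its log2 fold change was −0.27 ± 0.8195 (SE, limma adjusted p = 0.834), within name set A it was −1.50 ± 0.233 (SE, limma adjusted p = 9.41e-04), and in MP tumors 4 to 10 the sign turned to 0.26 ± 0.811 (SE, limma adjusted p = 0.843).

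As a share of α chain TPM, Lama5 was 4.75 to 9.06% in the ovaries and 5.39 to 62.5% in the tumors, above every ovary in 8 of 10. In MP tumors 8 and 9 it was 62.5 and 60.1%, and there Lama1, which made up 51.0 to 62.9% in the ovaries, was 12.7 and 4.64%. Lama3 was 1.49 to 1.84% in the ovaries and above that in 8 of 10 tumors, up to 17.7% in MP tumor 9. MP tumor 9 also had a summed level of 469.7 TPM for 7 epithelial markers and 569 TPM for 4 surface epithelium and mesothelium markers, against 239 to 270.5 and 169 to 202 TPM in the ovaries. In MP tumor 8 these sums were 122 and 2.101 TPM, so the high Lama5 share stood beside low sums of both lists there. Krt8 of the epithelial list nevertheless lay above every ovary in MP tumor 8, at 72.1 TPM. The epithelial sum of MP tumor 9 was carried by Krt18 and Krt19, at 264 and 151 TPM, while Epcam, Krt7, Krt8, Cldn3 and Cldn4 lay below every ovary. Its surface epithelium and mesothelium sum rested on Upk3b and Lrrn4, at 335 and 162 TPM, while Upk1b lay below every ovary and Msln within their range. The highest epithelial sum was that of MP tumor 4, at 1236 TPM, where Lama5 and Lama3 were at 3.62 and 0.7996 TPM, both below the ovaries. In that tumor Krt8, Krt18, Krt19 and Cldn3 lay above every ovary, and Epcam, Krt7 and Cldn4 lay below. The part of the cells that these markers stand for was not tested.

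**Figure D3:**
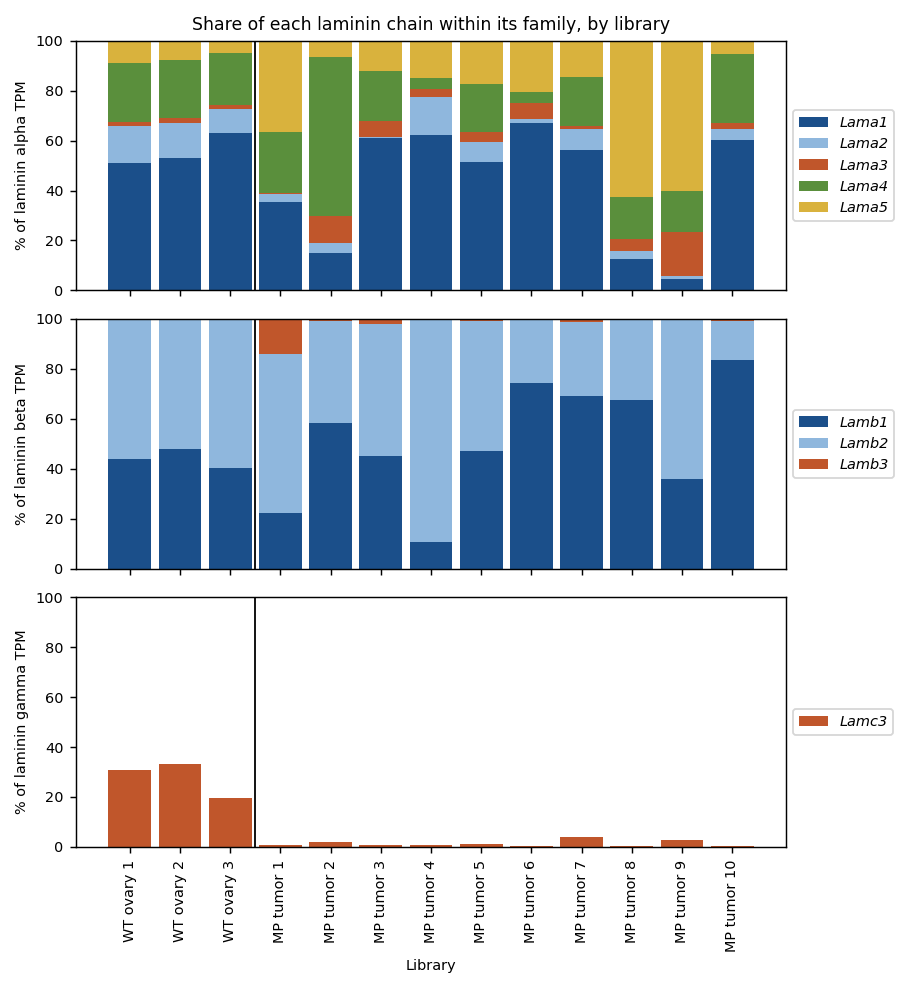
Share of each laminin chain in the summed TPM of its family (y axis, percent), for α, β and γ chains from top to bottom and for each of 13 libraries (x axis). Of the γ chains, Lamc3 alone is drawn. The Lamc3 part is 19.5 to 33.1% in the 3 WT ovaries and at most 4.06% in the 10 MP tumors, and the Lama5 part reaches 62.5 and 60.1% in MP tumors 8 and 9.

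No β chain passed the threshold. Lamb1, the β1 chain, was at 98.1, 106 and 103 TPM in the ovaries and at 2.04 to 171 (median 33.1) TPM in the tumors, with MP tumors 5, 9 and 10 in or above the range of the ovaries (log2 fold change −2.18, SE 1.205, limma adjusted p = 0.216). Lamb2, the β2 chain, was at 125, 114 and 152 TPM and at 1.81 to 179 (median 20.05) TPM, with MP tumor 9 above the ovaries and MP tumor 5 within their range (log2 fold change −2.64, SE 1.06, limma adjusted p = 0.09599). Both were lower within name set A, by log2 fold changes of −5.01 ± 0.251 (SE, limma adjusted p = 1.58e-05) and −5.02 ± 0.393 (SE, limma adjusted p = 3.92e-05). MP tumors 1, 2 and 3 held 2.04 to 2.58 TPM of Lamb1 and 1.81 to 5.90 TPM of Lamb2, below each of the other 7 tumors. Against those 7, the log2 fold change was −4.04 for Lamb1 (SE 0.765, limma adjusted p = 0.00213) and −3.39 for Lamb2 (SE 0.721, limma adjusted p = 0.00392).

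Lamb3, the β3 chain of laminin-332, was low in both tissues. It was at 0.244, 0.312 and 0.512 TPM in the ovaries and at 0.0272 to 2.27 (median 0.333) TPM in the tumors. MP tumors 5, 10 and 1 were highest at 2.27, 1.65 and 1.28 TPM, and 4 tumors lay below all ovaries. The log2 fold change was 0.19 ± 0.354 (SE, limma adjusted p = 0.714), and with the length trend removed it was 1.13 ± 0.355 (SE, limma adjusted p = 0.0346). The latter was not seen when MP tumors 1, 2 and 3 were also left out (log2 fold change 0.69, SE 0.294, limma adjusted p = 0.1203).

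The laminin receptors α3, α6 and α7 pair with β1, and α6 pairs also with β4 in hemidesmosomes, the plaques that anchor epithelia. Itga6 was at 56.7, 62.9 and 55.3 TPM in the ovaries and at 1.63 to 67.3 (median 28.9) TPM in the tumors. MP tumor 5 alone lay above the ovaries, and MP tumors 1, 2 and 3 were the lowest at 14.04, 3.09 and 1.63 TPM. The log2 fold change was −1.58 ± 0.8103 (SE, limma adjusted p = 0.185), and −3.44 ± 0.607 (SE, limma adjusted p = 0.00175) within name set A. As a share of α subunit TPM, Itga6 was 12.6 to 14.8% in the ovaries and 14.1 to 52.6% in the tumors, above every ovary in 7 of 10 and below in 0. Itgb4 was at 2.98, 2.27 and 2.51 TPM and at 0.103 to 2.31 (median 0.387) TPM, with MP tumor 9 just inside the range of the ovaries (log2 fold change −1.09, SE 0.378, limma adjusted p = 0.0607). The values of Itgb4 lay far below those of Itga6 on this scale per length in every library.

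Itga3 split the tumors. It was at 25.9, 26.2 and 25.7 TPM in the ovaries and at 0.2397 to 70.9 (median 7.92) TPM in the tumors, and MP tumors 5, 9 and 4 lay above the ovaries at 70.9, 61.6 and 26.5 TPM. MP tumors 1, 2, 3 and 7 were at 0.536, 1.01, 0.2397 and 0.289 TPM. The log2 fold change of −1.85 ± 1.199 (SE, limma adjusted p = 0.287) was thus a mean over unlike tumors and did not pass. Itga7, the laminin receptor best known from muscle, was at 3.05, 2.19 and 2.19 TPM in the ovaries and at 0.283 to 15.4 (median 2.51) TPM in the tumors. MP tumors 9, 8, 6 and 5 lay above the ovaries at 15.4, 14.03, 8.69 and 7.91 TPM, and its log2 fold change was 0.36 ± 0.754 (SE, limma adjusted p = 0.751). The sum of 4 skeletal muscle markers was 0.664 to 0.985 TPM in the ovaries and above that in 9 of 10 tumors. It was highest in MP tumor 1, at 293 TPM, where Itga7 was at 0.705 TPM, and next highest in MP tumor 8, at 57.03 TPM, where Itga7 was at 14.03 TPM. The part of muscle in the result was not tested.

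The collagen receptors α1, α2, α10 and α11 all pair with β1. Itga2 (ENSMUSG00000015533, chr13:114833081-114932100, minus strand), which epithelial cells and platelets are known for, was at 27.1, 23.3 and 10.05 TPM in the ovaries and at 0 to 2.53 (median 0.627) TPM in the tumors. Every tumor lay below every ovary, and MP tumor 4 had 0 reads. Its log2 fold change was −3.54 ± 0.445 (SE, limma adjusted p = 4.65e-05), and with the length trend removed it was −2.57 ± 0.353 (SE, limma adjusted p = 1.99e-04). Itga1 was at 16.3, 15.3 and 11.8 TPM and at 0.277 to 4.85 (median 1.03) TPM, with no overlap and with MP tumors 5 and 10 highest (log2 fold change −2.67, SE 0.526, limma adjusted p = 0.00282). With the length trend removed the log2 fold change of Itga1 was −1.40 (SE 0.337, limma adjusted p = 0.00931). Itga11, a collagen receptor of fibroblasts, was at 12.7, 14.3 and 13.5 TPM and at 0.105 to 5.85 (median 0.755) TPM, with no overlap and the same pair of tumors highest (log2 fold change −2.85, SE 0.525, limma adjusted p = 0.00168). Itga10, known from cartilage, was at 2.26, 1.42 and 2.05 TPM and at 0.268 to 5.55 (median 1.797) TPM, with tumors on both sides of the ovaries (log2 fold change 0.12, SE 0.513, limma adjusted p = 0.885), while within name set A it was lower (log2 fold change −0.83, SE 0.258, limma adjusted p = 0.0234). Of the 4 collagen receptors 3 were therefore lower over all tumors and 4 within name set A.

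Those 3 collagen receptors stood beside lower stromal markers in most but not all tumors. The summed level of 6 fibroblast markers was 1176 to 2114 TPM in the ovaries and 74.5 to 4134 TPM in the tumors, below all ovaries in 8 of 10, with 2 of 6 genes lower and 0 higher. MP tumor 9 had 4134 TPM of these markers and 0.8801 TPM of Itga11, and MP tumor 5 had 2111 and 5.85 TPM. In MP tumor 5 only Col1a1 and Col3a1, at 949 and 863 TPM, lay above the ovaries, while Pdgfra, Pdgfrb, Dcn and Lum lay below each of them. Pdgfra and Pdgfrb lay below each ovary in MP tumor 9 as well. The sum of 5 smooth muscle markers was 1352 to 1576 TPM in the ovaries and 52.3 to 1267 TPM in the tumors, with 10 of 10 below, and that of 5 endothelial markers was 269 to 283 and 6.04 to 189 TPM, with 10 of 10 below. No gene of these 3 marker lists was at 0 in all tumors, and the part of these cells in the result was not tested.

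Itga9 and Itga8 bind matrix proteins made by stroma. Itga9, a receptor for tenascin C and VCAM-1, was the most abundant integrin α subunit of the WT ovaries at 138, 129 and 119.6 TPM, and it was at 0.889 to 43.97 (median 10.8) TPM in the tumors. The groups did not overlap, and MP tumors 10, 5 and 4 were highest at 43.97, 35.5 and 32.2 TPM. On the log2 scale the change was −3.74 ± 0.916 (SE, limma adjusted p = 0.0119), and −5.88 ± 0.258 (SE, limma adjusted p = 1.54e-05) within name set A. Without WT ovary 1, 2 or 3 the call over all tumors was lost (limma adjusted p = 0.0632, 0.0583 and 0.0572), with log2 fold changes of −3.69, −3.74 and −3.80. Itga9 made up 29.9 to 30.7% of α subunit TPM in the ovaries and 5.17 to 34.9% in the tumors, below in 9 of 10. Itga8, the receptor for nephronectin, was at 9.61, 6.95 and 11.96 TPM and at 0.0755 to 2.36 (median 0.533) TPM, with no overlap (log2 fold change −2.61, SE 0.383, limma adjusted p = 2.12e-04). Itga5, the fibronectin receptor, was at 58.5, 51.6 and 74.3 TPM and at 0.668 to 86.5 (median 16.5) TPM, with MP tumor 5 above and MP tumor 9 inside the range of the ovaries (log2 fold change −2.29, SE 1.01, limma adjusted p = 0.1297). MP tumors 1, 2 and 3 held the least Itga5, at 2.600, 1.05 and 0.668 TPM.

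Itgav, the α subunit shared by receptors for vitronectin and latent TGF-β, was at 73.2, 78.2 and 58.3 TPM in the ovaries and at 1.39 to 32.4 (median 5.74) TPM in the tumors. The groups did not overlap, and the log2 fold change was −3.20 ± 0.715 (SE, limma adjusted p = 0.00677), or −2.08 ± 0.444 (SE, limma adjusted p = 0.00471) with the length trend removed. Itgav pairs with several β subunits. Itgb3, the β subunit of αvβ3 and of the platelet fibrinogen receptor, was at 62.7, 58.4 and 43.4 TPM and at 0.387 to 29.6 (median 3.04) TPM, with no overlap and with MP tumors 5 and 9 highest (log2 fold change −3.57, SE 0.834, limma adjusted p = 0.00891). This call was lost without WT ovary 1 or 2 (limma adjusted p = 0.0554 and 0.0510), with log2 fold changes of −3.47 and −3.52. Its share of β subunit TPM was 4.41 to 6.09% in the ovaries and 0.188 to 3.45% in the tumors, below in 10 of 10. Itgb5 was at 196, 184 and 229.5 TPM and at 3.43 to 239 (median 57.6) TPM, and MP tumors 10 and 5 reached the ovaries (log2 fold change −2.21, SE 1.01, limma adjusted p = 0.142).

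Itgb8, which with αv activates TGF-β, was at 2.64, 2.02 and 1.86 TPM and at 0.0126 to 2.22 (median 0.322) TPM. MP tumor 5 lay within the range of the ovaries and the other 9 below it (log2 fold change −1.07, SE 0.334, limma adjusted p = 0.0398), but the sign turned with the length trend removed (log2 fold change 0.06, SE 0.397, limma adjusted p = 0.929), where its transcript is 11060 bases long. The call was also lost without WT ovary 1, 2 or 3 or MP tumor 1, 2, 3 or 8 (log2 fold changes −1.14 to −0.97, limma adjusted p = 0.0513 to 0.171). Itgb6, the epithelial partner of αv, was at most 0.0663 TPM in any library, from 0 to 7 reads, so that a difference could not be read at this depth. The α subunit of the platelet fibrinogen receptor, Itga2b, was at 1.22, 0.597 and 1.91 TPM in the ovaries and at 0.167 to 3.79 (median 1.54) TPM in the tumors, and overlapped (log2 fold change 0.25, SE 0.433, limma adjusted p = 0.694). It was higher with the length trend removed (log2 fold change 1.12, SE 0.368, limma adjusted p = 0.0408), but not when MP tumors 1, 2 and 3 were also left out (log2 fold change 0.98, SE 0.3705, limma adjusted p = 0.0862). The sum of 5 platelet and megakaryocyte markers was 23.02 to 42.7 TPM in the ovaries and 11.9 to 169.5 TPM in the tumors, with 0 of 3 tested genes called either way. Of the 2 subunits of the platelet receptor, Itgb3 was lower over all tumors with all libraries in the fit, and Itga2b did not pass the threshold.

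Itgb1, the partner of most α subunits, was the most abundant subunit in every library. It was at 696, 717 and 680.0 TPM in the ovaries and at 119 to 589.8 (median 273) TPM in the tumors, and all 10 tumors lay below the ovaries. Itgb1 had a log2 fold change of −1.26 ± 0.416 (SE), which passed by little (limma adjusted p = 0.04998) and lost its call in 18 of 27 alternatives, among them the length trend removed (log2 fold change −0.49, SE 0.2398, limma adjusted p = 0.156). Its call is the weakest of the 14. It made up 67.6 to 72.5% of β subunit TPM in the ovaries and 60.2 to 95.2% in the tumors, above every ovary in 8 of 10, with 88.7 to 95.2% in MP tumors 1, 2 and 3.

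**Figure D4:**
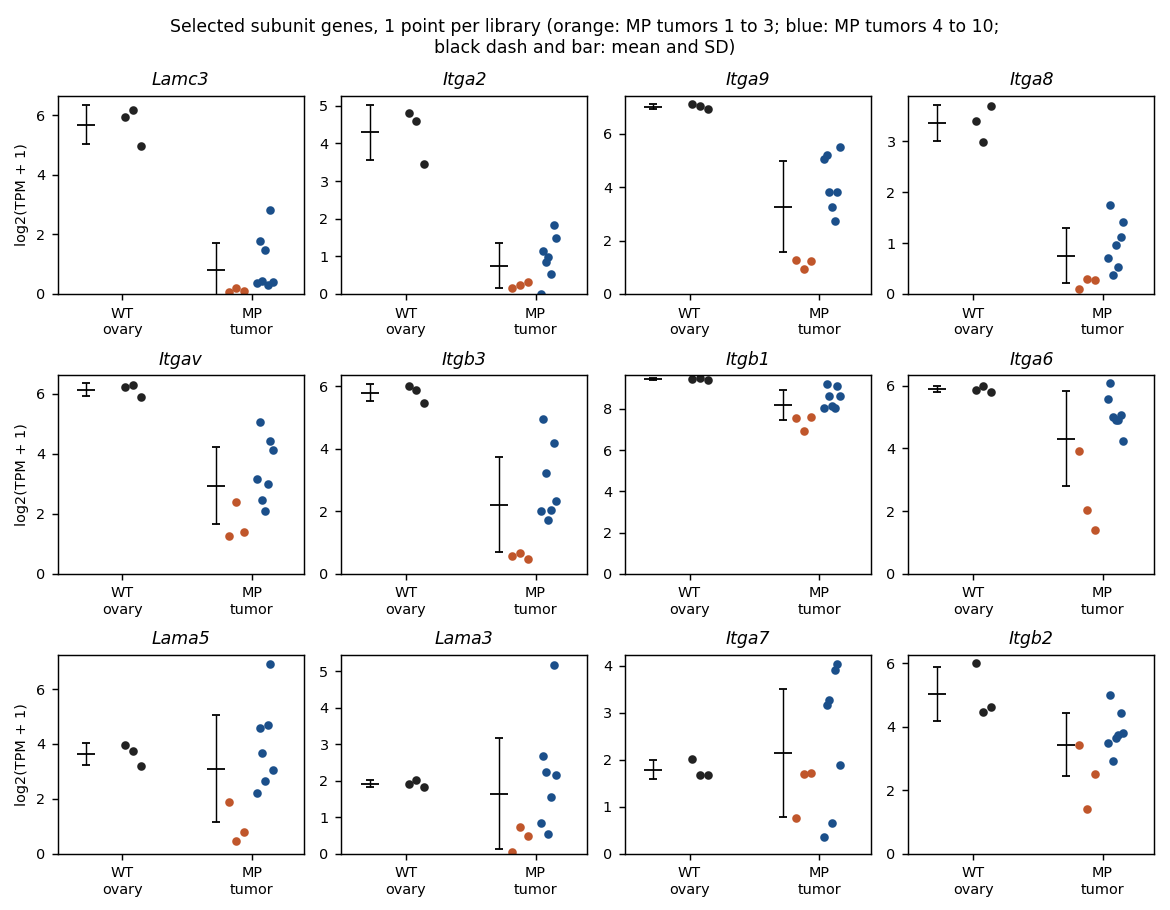
Level of 12 subunit genes as log2(TPM + 1) (y axis), with 1 point for each of 3 WT ovaries (black), MP tumors 1 to 3 (orange) and MP tumors 4 to 10 (blue), and a dash and bar for mean and SD of each group. Lamc3, Itga2, Itga9, Itga8, Itgav, Itgb3 and Itgb1 do not overlap between groups, and Lama5, Lama3 and Itga7 spread from below to above the ovaries, with MP tumor 9 highest in each at 119, 35.2 and 15.4 TPM.

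Leukocyte integrins share the β2 subunit, or pair α4 or αE with β7. Itgax, the αX subunit known from dendritic cells and macrophages, was at 16.4, 3.98 and 4.98 TPM in the ovaries and at 0.0712 to 2.899 (median 0.652) TPM in the tumors, with no overlap (log2 fold change −2.08, SE 0.483, limma adjusted p = 0.00857). Without WT ovary 1, its highest library, the log2 fold change was −1.52 and the call was lost (limma adjusted p = 0.0936). Itgb2 was at 64.1, 20.9 and 23.7 TPM and at 1.65 to 31.3 (median 10.8) TPM, with WT ovary 1 again the highest and only MP tumor 5 inside the range of the ovaries (log2 fold change −1.60, SE 0.622, limma adjusted p = 0.0882). WT ovary 1 also held the highest sum of 9 leukocyte markers, 350.2 TPM against 172 and 231 TPM in the others. The tumors ranged from 32.4 to 280.1 TPM, below all ovaries in 6 of 10, and 0 of 6 tested markers were lower or higher by limma.

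Itgb7, known from gut-homing lymphocytes, was at 4.74, 3.48 and 4.04 TPM in the ovaries and at 0 to 2.59 (median 1.16) TPM in the tumors, with no overlap and with MP tumor 2 at 0 reads (log2 fold change −1.32, SE 0.385, limma adjusted p = 0.0285). The call was lost without WT ovary 1, 2 or 3 (log2 fold changes −1.23, −1.41 and −1.33, limma adjusted p = 0.138, 0.0869 and 0.111), and with the length trend removed (log2 fold change −0.72, SE 0.264, limma adjusted p = 0.0624). Itgal and Itgam, the α subunits of LFA-1 and Mac-1, were at 2.901, 3.17 and 2.52 and at 3.47, 2.204 and 2.91 TPM in the ovaries. In the tumors Itgal was at 0.0868 to 4.93 (median 0.925) TPM (log2 fold change −0.86, SE 0.448, limma adjusted p = 0.188). Itgam was at 0.272 to 4.04 (median 1.11) TPM there (log2 fold change −0.76, SE 0.432, limma adjusted p = 0.229), and MP tumors 9 and 5 were its highest. Itga4, which pairs with β1 or β7 and binds VCAM-1, was at 2.34, 1.67 and 1.89 and at 0.164 to 2.54 (median 0.307) TPM (log2 fold change −0.85, SE 0.3604, limma adjusted p = 0.114). All 3 overlapped between groups, and counts of Itgam are uncertain where the second gene model of that name shares its bases.

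Itgad was at most 0.0796 TPM in the ovaries and was above 0.5 TPM only in MP tumor 8, at 1.195 TPM (33 reads), and MP tumor 10, at 0.713 TPM (5 reads). Itgae was at 0.544, 0.806 and 0.571 TPM in the ovaries and at 0.0996 to 0.5705 (median 0.323) TPM in the tumors. Both were below the limit for testing. The 8 leukocyte subunits summed to 36.3 to 94.5 TPM in the ovaries and 3.82 to 45.5 TPM in the tumors. The 9 stromal subunits summed to 283 to 302 and 7.67 to 185 TPM, below all ovaries in 10 of 10, and the 10 epithelial subunits to 214 to 221 and 6.69 to 264 TPM, below in 8 of 10.

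The tumors also differed among themselves across families. MP tumor 5 was the highest tumor in 17 of the 34 tested genes, MP tumor 9 in 11, MP tumor 10 in 5 and MP tumor 6 in 1. MP tumor 2 was the lowest in 11, MP tumor 3 in 10, MP tumor 1 in 7, MP tumor 4 in 5 and MP tumor 10 in 1. MP tumor 2 is the library in which 10 genes took 55.1% of TPM. In MP tumor 5, 16 of 34 genes lay below every WT ovary and 13 above. For MP tumor 9 these numbers were 20 and 10, and for MP tumors 1, 2 and 3 they were 33, 32 and 33 below with 1, 0 and 0 above. Over all genes tested, the share below every ovary was 45.6% in MP tumor 5, 42.4% in MP tumor 9 and 67.1, 80.9 and 71.0% in MP tumors 1, 2 and 3. The share of all genes above every ovary was not worked out. The counts above the ovaries therefore cannot be read as particular to the subunit genes. MP tumors 5, 9 and 10 had correlations with length of 0.239, 0.201 and 0.194, near those of the WT ovaries, and the part of that trend in the order of the tumors was not tested.

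Partners of the subunits were taken from 4 lists of 41 genes in all, of which 37 were tested. By limma 9 were lower and 0 higher (0 also by limma-voom and in each alternative), against the 14.3% of all genes given above. The 9 are 24.3% of those tested. The count was 33 within name set A (89.2%, against 57.3% of all genes), 7 in MP tumors 4 to 10 (18.9%, against 13.5%) and 7 with the length trend removed (18.9%, against 9.25%), and it was 5 without any 1 of the WT ovaries (13.5%, against 6.7 to 6.92%). Among basement membrane proteins 4 of 12 were lower. Ntn4, a netrin that binds laminin γ chains, was at 72.2, 63.3 and 72.01 TPM in the ovaries and 1.06 to 21.3 TPM in the tumors (log2 fold change −3.17, SE 0.733, limma adjusted p = 0.00833). Npnt, or nephronectin, the ligand of α8β1, was at 17.8, 18.1 and 13.2 TPM in the ovaries and 0.249 to 10.3 TPM in the tumors (log2 fold change −2.76, SE 0.613, limma adjusted p = 0.00662). Nid1, which links laminin to collagen IV, was at 156, 154 and 181 TPM in the ovaries and 2.02 to 95.3 TPM in the tumors (log2 fold change −3.16, SE 1.01, limma adjusted p = 0.0443). Dag1, the laminin receptor dystroglycan, was at 368, 372 and 443 TPM in the ovaries and 8.75 to 328 TPM in the tumors (log2 fold change −2.67, SE 0.869, limma adjusted p = 0.0474), and with the length trend removed it just missed the threshold (log2 fold change −1.76, SE 0.607, limma adjusted p = 0.0512). Npnt and its receptor gene Itga8 were thus both lower.

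Among hemidesmosome partners 1 of 3 tested was lower, Cd151, a tetraspanin that binds laminin-binding integrins, at 449.6, 429 and 441 TPM in the ovaries and 45.4 to 249.99 TPM in the tumors (log2 fold change −2.19, SE 0.4896, limma adjusted p = 0.00677). Among 14 tested genes of integrin activation and adhesion only Ptk2b, a kinase related to focal adhesion kinase, was lower, at 29.3, 34.3 and 52.4 TPM in the ovaries and 0.2004 to 28.7 TPM in the tumors (log2 fold change −3.26, SE 0.871, limma adjusted p = 0.01896). For this list that is a smaller part than the 14.3% of all genes lower in the same fit. Of 8 tested further ligands 3 were lower. Tnc, tenascin C, a ligand of α9β1, was at 199.7, 301 and 379.8 TPM in the ovaries and 0.695 to 50.3 TPM in the tumors (log2 fold change −5.48, SE 0.776, limma adjusted p = 1.61e-04), and Itga9 was lower as well. Cdh1, E-cadherin, the ligand of αEβ7, was at 10.2, 13.4 and 10.2 TPM in the ovaries and 0 to 7.15 TPM in the tumors (log2 fold change −2.91, SE 0.518, limma adjusted p = 0.001304), with MP tumor 1 highest of the tumors. Icam2, a ligand of LFA-1, was at 32.6, 35.97 and 24.5 TPM in the ovaries and 2.27 to 31.97 TPM in the tumors (log2 fold change −1.84, SE 0.599, limma adjusted p = 0.0473), where MP tumor 5 overlapped the ovaries, and with the length trend removed it just missed the threshold (log2 fold change −1.36, SE 0.481, limma adjusted p = 0.0548).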

How the data were processed

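Bulk RNA of 10 MP tumors and 3 WT ovaries was compared. The authors deposited 1 table of TPM values with gene identifiers, coordinates and lengths, with 1 column for each library. The submitters' processing notes name FastQC 0.11.5, Trimmomatic 0.36, STAR 2.5.3a, featureCounts 1.6.3 and mm10, while the labels' protocol names hg19, HTSeq and RPKM. Of the 37 genes 34 have the coordinates of mouse GENCODE M21, so the unit and build were taken from the table. A gene's TPM also moves when other genes take a larger part of a library.

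Columns were matched to samples by the labels' description. Reads were worked back from TPM times gene length, which came to whole reads within 0.01. A gene entered the test when 3 or more libraries reached 1 TPM (17277 genes), and values were compared as log2(TPM + 1) with limma 3.58.1 (trended, robust) in R 4.3.3, with no covariate. Benjamini-Hochberg adjustment ran over all genes tested, with a threshold of 0.05. The added 1 shrinks fold changes of low genes. The length trend was removed library by library by regression on log2 length. The members and all gene lists were chosen with earlier results of these data known. Named were the members called, those of laminin-332 and of α6β4, the most abundant ones and, of each partner list, up to 3 called genes by size of the moderated statistic, for each direction, and other members were added. Counts cover all 37 members, and values of 1 are not reported here. Dag1, the 4th called gene of its list, was named outside this rule. Of the tested genes of each marker list, 2 of 7 were lower for epithelium, 0 of 6 for leukocytes, 0 of 3 for platelets, 2 of 6 for fibroblasts, 3 of 5 for endothelium, 4 of 5 for smooth muscle, 0 of 3 for skeletal muscle, 5 of 5 for granulosa cells, 4 of 5 for theca and luteal cells, 5 of 5 for oocytes and 2 of 4 for surface epithelium, and 0 were higher in each.

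Pairs of libraries of 1 group differed by more than sampling noise (chi-square per degree of freedom of at least 28.4), so no library was counted as a second deposit of another. That check does not tell libraries of 1 animal from libraries of several. The labels do not say which animals the libraries came from, so P values measure the spread between these libraries. Alternatives varied the pseudocount, filter, scaling, limma options, name set, block and single libraries. A further 3 (without MP tumors 1, 2 and 3, length trend removed, and both) were chosen after seeing the data. On data simulated from the mean levels and depths of these libraries, limma recovered 191 of 200 changed genes among 17277 and called 9 unchanged ones. The simulated noise was capped and alike in both groups, with no effect of name set or length. Only genes of higher mean level were changed, and by large amounts. The simulation therefore checked the code and does not measure power in these data, where tumors vary more. Python 3.11.15 with pandas 2.3.3 and matplotlib 3.10.9 made the tables and figures.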

Additional observations from a re-analysis of the deposited data

Results flagged for a closer look

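The highest and the lowest of the 10 MP tumors were compared with the next tumor for each gene, on log2(TPM + 1). The gap passed Dixon's limit in 2 of the 37 genes, each time at the highest value, where 1.85 would be flagged by chance at 1 in 20. On TPM without the log the flags would differ. Lama3, the α3 chain of laminin-332, was at 35.2 TPM in MP tumor 9, and the next tumor was at 5.37 TPM. Itgb6, the epithelial partner of αv, was at 0.0587 TPM in MP tumor 1, which was 3 reads, and the next tumor was at 0.0230 TPM, which was 1 read.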

How the results depend on the processing

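The 14 members lower in MP tumors became 3 (of 18 tested) with a filter of 1 TPM in at least 10 libraries (7.53% of all genes were lower there), 31 within name set A (57.3%), 28 with name set as a covariate (49.4%) and 8 to 19 with 1 library left out (6.7 to 18.9%). The 0 higher became 2 with the length trend removed. The 9 partner genes lower became 4 (of 31 tested), 33 and 30 under the same first 3 settings and 5 to 13 with 1 library left out, the lowest of these without any 1 of the WT ovaries. Other scalings kept the member count between 10 (median-of-ratios, 10.5% of all genes lower and 7.5% higher) and 18 (limma-voom, 17.6 and 15.8%). Itga1, Itga2, Itga8, Itga11, Itgav, Lama2 and Lamc3 kept their call in every alternative they could be tested in. Itga9 lost it without WT ovary 1, 2 or 3 (adjusted p 0.0572 to 0.0632), Itgb3 without WT ovary 1 or 2 and Itgax without WT ovary 1. Itgb1, Itgb7 and Itgb8 lost it in 18, 8 and 14 alternatives in which the sign stayed. Itgb8 also lost it with the length trend removed, where its sign turned. The labels do not tie same-numbered libraries to 1 animal. Same-numbered deviations correlated at −0.096, −0.021 and 0.001. So few libraries of unlike tissues cannot tell whether the numbers pair the libraries. With the replicate block within name set A, 31 members and 34 partner genes were lower, where 56.9% of all genes were.

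Signs turned for 10 members in 25 of 902 single-gene alternatives. Among those that kept their sign, 760 stayed on the same side of the threshold, 65 gained and 52 lost a call. Within name set A, with or without the block, and with the covariate, log2 fold changes were −0.52 for Itga2b, −0.39 for Itga7 and −0.83 for Itga10 (limma adjusted p = 0.0234 within name set A, 0.0216 with the block and 0.127 with the covariate), and that of Itga10 ranged from −0.0095 to 0.26 with 1 library left out. With the length trend removed they were 0.34 for Itga4, 0.0658 for Itgal, 0.0836 for Itgam, 0.0593 for Itgb8, 0.85 for Lama3 and 0.59 for Lama5, and also without MP tumors 1, 2 and 3 they were 0.81 for Lama3, 0.90 for Lama5 and 0.0898 for Lamc1. Without these tumors alone Lama3 was at 0.26 and Lama5 at 0.33, with quantile normalization at 0.39 and 0.35, and Lama3 was at 0.10 with median-of-ratios scaling. The causes were not tested. Depth limits the low values of the MP tumors most, where 1 read in 1 kb is up to 0.790 TPM.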
